A study of Homo sapiens with 6 samples.

Results

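RNA levels of the 4 kinases that phosphorylate eIF2α, and of OMA1 and DELE1, which carry a mitochondrial stress signal to one of them, were measured in K562 cells after HR-19011. The members were chosen by gene symbol: EIF2AK1, EIF2AK2, EIF2AK3, EIF2AK4, OMA1 and DELE1, 6 of the 46427 genes in the files, and each was found once in every library. K562 is an established human erythroleukaemia line, wild type per the labels. HR-19011, a test compound named by a code, was given at 10 µM for 24 h to the cells of 3 libraries, and the cells of the 3 vehicle libraries had 0.1% DMSO for the same time; the DMSO content of the HR-19011 cultures is not stated. The series title names HRI, eIF2α and ATF4, so the comparison bears on how the genes of that signalling step differ between treated and vehicle cells. Nothing in the labels ties the replicates to separate cultures. The p-values set the difference between groups against the scatter of these libraries, and that scatter may be technical only.

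The integrated stress response is a shared brake on protein synthesis. Each of 4 kinases senses a different stress and phosphorylates eIF2α: HRI (gene EIF2AK1) responds to low heme and to cytosolic and mitochondrial stress, PKR (EIF2AK2) to double-stranded RNA, PERK (EIF2AK3) to misfolded protein in the endoplasmic reticulum, and GCN2 (EIF2AK4) to uncharged tRNA and stalled ribosomes. OMA1 is a metalloprotease of the mitochondrial inner membrane that cleaves DELE1 under stress, and the DELE1 fragment reaches the cytosol and binds HRI. HRI is known for its abundance in erythroid cells, where it matches globin synthesis to heme supply. All these proteins are switched on after translation, so the values here are RNA levels and not activities.

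Values are FPKM, reads per length of transcript and per library size, as the authors deposited them; they give no read counts, so depth is unknown and no counting error can be given beside the spread of the 3 libraries per group. Summed FPKM was 420661 to 427819 in HR-19011 libraries and 456639 to 467595 in vehicle libraries. The 15 protein and ribosomal RNA genes of the mitochondrial genome took 13.3% to 13.7% of it in HR-19011 libraries and 18.8% to 19.8% in vehicle libraries. All 9 markers of the erythroleukaemic identity of K562 averaged at least 1 FPKM, with summed levels of 4250 to 4479 FPKM in HR-19011 libraries and 9806 to 9998 FPKM in vehicle libraries. The sum was carried by 4 globin genes. TAL1 was at 30.8 to 33.6 FPKM with HR-19011 and 30.5 to 32.2 FPKM with vehicle, and GYPC at 111 to 117 FPKM with HR-19011 and 131 to 136 FPKM with vehicle. Of 15 markers of T cells, B cells, monocytes, epithelium and fibroblasts, CD2, MS4A1, KRT5 and KRT14 were listed at 0 in all libraries, whereas EPCAM, LYZ and CD3D were above 1 FPKM. The epithelial list, of which EPCAM was 1 of 3, summed to 18.7 to 21.3 FPKM with HR-19011 and 31.9 to 33.4 FPKM with vehicle. The T cell list summed to 11.8 to 12.4 FPKM with HR-19011 and 6.21 to 9.14 FPKM with vehicle, and the monocyte list to 12.3 to 13.3 FPKM with HR-19011 and 11.4 to 12.1 FPKM with vehicle. The B cell list stayed under 1 FPKM in all libraries, as did the fibroblast list. The part of these lists and of the lower mitochondrial share in the differences below was not tested as a cause. A scaling that left globin and mitochondrial genes out of the totals is given at the end. In bulk RNA, a change in the make-up of a culture and a change in RNA per cell cannot be told apart.

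EIF2AK3 and DELE1 were the members that rose by a clear margin, 4.27-fold and 1.56-fold; EIF2AK1 and EIF2AK2 differed by 1.10-fold and 1.27-fold, and EIF2AK4 and OMA1 were not called. Differences were tested with limma on log2(FPKM + 1) over the 11856 genes that averaged at least 1 FPKM, all 6 members among them, with Benjamini-Hochberg adjustment and a threshold of 0.05. Of the 6 members, 4 were called, all higher in HR-19011 cells. Of all tested genes 84.4% were called, 46.4% higher and 38% lower, so a call alone does not set a member apart. Larger calls were counted as those that differed by 1 or more, up or down, on the log2(FPKM + 1) scale. They were rarer, at 18.5% of tested genes, 12% higher and 6.45% lower, and EIF2AK3 was the 1 member among them. A low gene can exceed a 2-fold ratio of mean FPKM and still be left out of these shares. The libraries of the groups did not overlap for 5 of the 6 members, all higher with HR-19011, nor for 85.2% of all tested genes, 46.9% higher and 38.3% lower.

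Because so many genes differed, the scaling between libraries bears on small differences, and 3 other scalings were run. TMM scaling, which sets libraries by a trimmed mean of log ratios, called 85% of the tested genes, 34.6% higher and 50.5% lower. Its factors were unweighted and came from all genes above 0 in a library and its reference, genes averaging under 1 FPKM included. Quantile normalization, which gives each library the same distribution, called 83.8%, 38.8% higher and 45% lower, and conversion to TPM, which sets the sums equal, called 85%, 52.9% higher and 32.1% lower. Of the members, TMM scaling called 2 higher (EIF2AK3 and DELE1) and 3 lower, quantile normalization 3 higher and 1 lower, and conversion to TPM 5 higher and none lower.

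**Figure D1:**
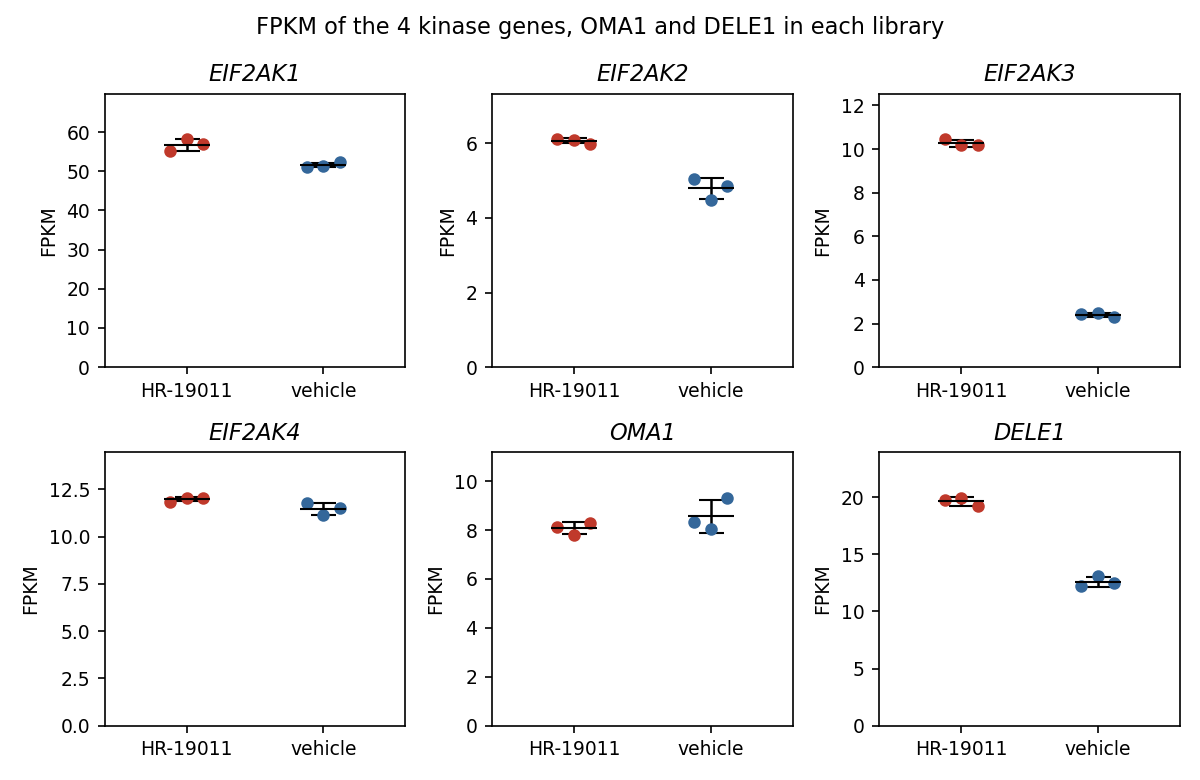
FPKM (vertical axes from 0, a scale per gene) of the 4 kinase genes, OMA1 and DELE1 in 3 HR-19011 libraries (red) and 3 vehicle libraries (blue); points are libraries, and bars are the mean and SD. EIF2AK3 lies near 10 FPKM in all treated libraries and between 2.30 and 2.47 FPKM in vehicle libraries, DELE1 is separated by a wide gap, and the OMA1 values of the groups overlap.

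EIF2AK3, encoding the endoplasmic reticulum kinase PERK, was listed at 10.5, 10.2 and 10.2 FPKM in the HR-19011 libraries and at 2.45, 2.47 and 2.30 FPKM in the vehicle libraries. Every treated library was thus more than 4 times any vehicle library, and the spread within a group was 1.54% of the mean with HR-19011 and 3.83% with vehicle. The means were 10.3 ± 0.158 FPKM with HR-19011 and 2.41 ± 0.0920 FPKM with vehicle (SD, n = 3 each). The log2 fold change was 1.73 (SE 0.0432, limma adjusted p = 1.54e-09), higher than that of 96.3% of the tested genes. It was the least abundant of the members in vehicle cells, above 19.8% of the tested genes, and stood at 52.4% with HR-19011. The gene lies on the minus strand of chromosome 2 from 88556741 to 88628145 on GRCh38. A divergent noncoding gene on the opposite strand, EIF2AK3-DT, which shares 38 exonic bases with it in the annotation, averaged 1.13 FPKM with HR-19011 and 0.290 FPKM with vehicle. The sources used here do not say whether counting used strand, and without strand reads in the shared bases cannot be told apart. A further antisense gene shares 781 of the 5434 exonic bases of EIF2AK3 and has no value here.

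Promoter sequence, 250 bases before to 50 after a start site, was found in the RefSeq table of GRCh38.p14 for 5 of the 6 members, and the upstream stretch of EIF2AK3 is shown because this gene differed most. The capitals mark CCAAT boxes, read on either strand, in the bases from -250 to -1 at chr2:88627465-88627714, minus strand; the RefSeq gene span extends further upstream than this start.

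EIF2AK3: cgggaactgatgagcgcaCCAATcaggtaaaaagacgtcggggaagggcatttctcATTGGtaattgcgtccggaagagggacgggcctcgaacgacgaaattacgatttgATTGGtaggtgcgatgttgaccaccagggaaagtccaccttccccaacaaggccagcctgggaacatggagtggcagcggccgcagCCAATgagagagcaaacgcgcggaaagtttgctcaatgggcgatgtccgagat

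The motif CCAAT occurred 4 times in this window, whereas 0.991% of 35116 promoters of the same length held it at least that often and 34.6% held it at least once. The other members had 2 (EIF2AK2), 1 (DELE1) and none (EIF2AK4 and OMA1). The full endoplasmic reticulum stress element, CCAAT followed by any 9 bases and CCACG, which overlaps the CCAAT motif, was in none of the 5 windows and in 0.0769% of all promoters. Its shorter form, ATTGG followed by any base and CCACG, was in none of the 5 and in 0.0541% of all. The C/EBP-ATF composite motif TGATGNAA that ATF4 binds was likewise in none of the 5 and in 3.62% of all. All motifs were read on both strands, and a match describes letters in this window only.

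DELE1, encoding the relay protein that binds HRI, was listed at 19.7, 19.95 and 19.2 FPKM in the HR-19011 libraries and at 12.2, 13.1 and 12.5 FPKM in the vehicle libraries. The groups were separated by more than their own ranges. The means were 19.6 ± 0.396 FPKM with HR-19011 and 12.6 ± 0.430 FPKM with vehicle (SD, n = 3 each), a log2 fold change of 0.60 (SE 0.0373, limma adjusted p = 4.44e-07), above that of 76.9% of the tested genes. DELE1 lies on the plus strand of chromosome 5 from 141923871 to 141942047. It has 20 listed transcript identifiers, and which of these forms add to its gene value was not examined. No annotated gene overlapped DELE1.

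OMA1, encoding the protease that cleaves DELE1, was listed at 8.14, 7.79 and 8.27 FPKM with HR-19011 and at 8.32, 8.05 and 9.33 FPKM with vehicle. The groups overlapped, and vehicle replicate 3 was the highest of all. The means of 8.07 ± 0.246 FPKM with HR-19011 and 8.56 ± 0.675 FPKM with vehicle (SD, n = 3 each) gave a log2 fold change of -0.08 (SE 0.0555, limma adjusted p = 0.232), with a 95% interval of -0.20 to 0.05. OMA1 was called lower with TMM scaling, at -0.30 (adjusted p = 0.000631), and with quantile normalization, at -0.21 (adjusted p = 0.00555), and stood at 0.04 after conversion to TPM (adjusted p = 0.539). The gene, on the minus strand of chromosome 1 from 58480719 to 58546726, has 1 transcript identifier in the files. DAB1, which shares 257 exonic bases with it on the same strand, was listed at 0.00153 FPKM with HR-19011 and 0.000358 FPKM with vehicle.

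Set against each other within a library, OMA1 was lower relative to DELE1 in each HR-19011 library than in any vehicle library: the log2 ratio of OMA1 to DELE1 was -1.28 ± 0.0712 in HR-19011 libraries and -0.56 ± 0.141 in vehicle libraries (SD, n = 3 each). A ratio inside a library does not depend on a common scaling factor between libraries. The groups did not overlap, and the exact two-sided permutation test gave p = 0.1, the smallest that 3 against 3 libraries allow, with an adjusted p of 0.106 over the 19 such comparisons made.

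EIF2AK1, encoding HRI, was by far the most abundant member in both groups. It was listed at 55.1, 58.2 and 57.01 FPKM with HR-19011 and at 51.2, 51.4 and 52.3 FPKM with vehicle, with no overlap and a narrow gap, or 56.8 ± 1.59 FPKM with HR-19011 and 51.6 ± 0.582 FPKM with vehicle (SD, n = 3 each). Its level stood above that of 90.8% of the tested genes with HR-19011 and 88.5% with vehicle. The log2 fold change of 0.13 (SE 0.0298, limma adjusted p = 0.00251) turned to -0.11 (adjusted p = 0.00810) after TMM scaling, so no direction is given for it. EIF2AK1 was called higher with quantile normalization (0.29, limma adjusted p = 1.04e-05) and with conversion to TPM (0.26, adjusted p = 2.58e-05). All tested genes had a median of 0.07, and -0.14 with TMM scaling, and EIF2AK1 lay 0.06 and 0.03 above these medians. With quantile normalization it lay 0.34 above the median. EIF2AK1 lies on the minus strand of chromosome 7 from 6022247 to 6059175. It shares 532 exonic bases with AIMP2, a gene of the opposite strand that encodes a scaffold of the tRNA synthetase complex, listed at 23.1 FPKM with HR-19011 and 26.2 FPKM with vehicle.

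EIF2AK2, encoding PKR, was listed at 6.11, 6.09 and 5.99 FPKM with HR-19011 and at 5.04, 4.48 and 4.85 FPKM with vehicle. The groups did not overlap, at 6.07 ± 0.0640 FPKM with HR-19011 and 4.79 ± 0.283 FPKM with vehicle (SD, n = 3 each), and the log2 fold change was 0.29 (SE 0.0485, limma adjusted p = 0.000435). The call was lost after TMM scaling (0.08, adjusted p = 0.141) and quantile normalization (0.08, adjusted p = 0.131). The gene lies on the minus strand of chromosome 2 from 37099210 to 37156980, and shares 35 exonic bases with GPATCH11 on the opposite strand, listed at 8.78 FPKM with HR-19011 and 8.99 FPKM with vehicle. PKR is a classical interferon-induced kinase, and the stretch around its start site is shown because it holds an interferon-type motif. The bases run from -100 to 4 after the start, at chr2:37156977-37157080, minus strand, with CCAAT boxes and the interferon-stimulated response motif (GAAA, any 2 bases, GAAA) in capitals, fixed letters only.

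EIF2AK2: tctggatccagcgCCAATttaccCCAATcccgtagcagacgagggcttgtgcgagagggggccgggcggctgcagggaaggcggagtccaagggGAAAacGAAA

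DELE1: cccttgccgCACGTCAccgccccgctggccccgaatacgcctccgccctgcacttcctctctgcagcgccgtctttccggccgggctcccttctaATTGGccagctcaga

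The interferon-type motif occurred once in the EIF2AK2 window, in none of the other 4 and in 3.57% of all promoters, on either strand. The DELE1 stretch, from -150 to -41 at chr5:141923721-141923830, plus strand, is set beside it since DELE1 was the other member that rose under each scaling; its capitals mark a CCAAT box and TGACGTG, the core letters of an unfolded protein response element, both on the opposite strand. TGACGTG was in none of the other 4 windows and in 1.97% of all promoters. GC content of the 5 windows was lowest for EIF2AK3, at 57.7%, and highest for EIF2AK2, at 72.3%, against a median of 58.7% over all promoters.

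EIF2AK4, encoding GCN2, was listed at 11.85, 12.04 and 12.06 FPKM with HR-19011 and at 11.77, 11.13 and 11.53 FPKM with vehicle. The lowest treated library lay just above the highest vehicle library, and the log2 fold change of 0.06 (SE 0.0363, limma adjusted p = 0.163) had a 95% interval of -0.02 to 0.14. EIF2AK4 was called lower with TMM scaling (-0.17, adjusted p = 0.00160) and higher after conversion to TPM (0.18, adjusted p = 0.00134). From the median of all tested genes it differed by -0.03 and -0.01 in these fits. The gene lies on the plus strand of chromosome 15 from 39934115 to 40035591 and has 1 transcript identifier in the files.

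**Figure D2:**
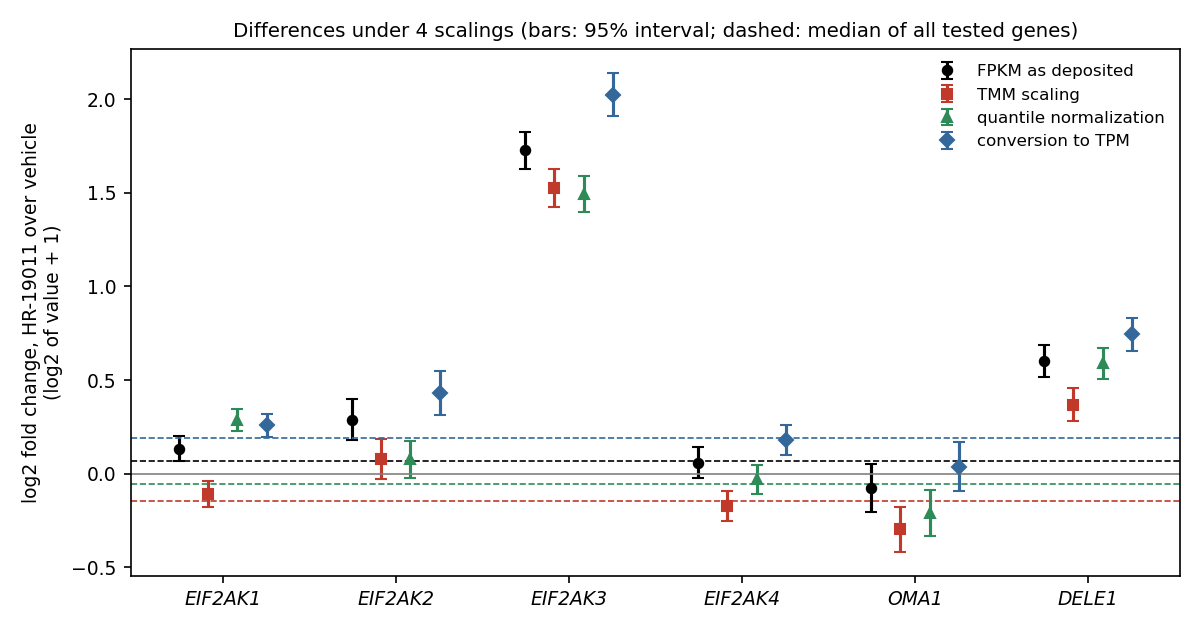
Log2 fold change of HR-19011 over vehicle on the log2(value + 1) scale (vertical axis) for the 6 members for the deposited FPKM and 3 other scalings; bars are 95% intervals from limma, and dashed lines give the median of all tested genes in the same colour. EIF2AK3 and DELE1 stay above 0 and above the medians under each of the 4 scalings, whereas EIF2AK1, EIF2AK4 and OMA1 lie on both sides of 0.

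The median of all tested genes shifted, relative to the deposited values, by -0.21 with TMM scaling, by -0.12 with quantile normalization and by 0.12 with TPM. Taken from the median of the same fit, EIF2AK3 was higher by 1.66 (deposited FPKM), 1.67 (TMM), 1.55 (quantile) and 1.83 (TPM). DELE1 was 0.53, 0.51, 0.64 and 0.55 above it in the same order. OMA1 stood at -0.15, -0.15, -0.16 and -0.15 from it.

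The order of the kinase levels changed through EIF2AK3. FPKM is per length and allows a rough comparison between genes, but it also depends on the transcript forms counted and on bases shared with other genes. With HR-19011 the order was EIF2AK1, DELE1, EIF2AK4, EIF2AK3, OMA1 and EIF2AK2, and with vehicle it was EIF2AK1, DELE1, EIF2AK4, OMA1, EIF2AK2 and EIF2AK3. No neighbours in either order overlapped in their libraries, although DELE1 and EIF2AK4 were close in vehicle cells, at 12.6 and 11.5 FPKM.

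**Figure D3:**
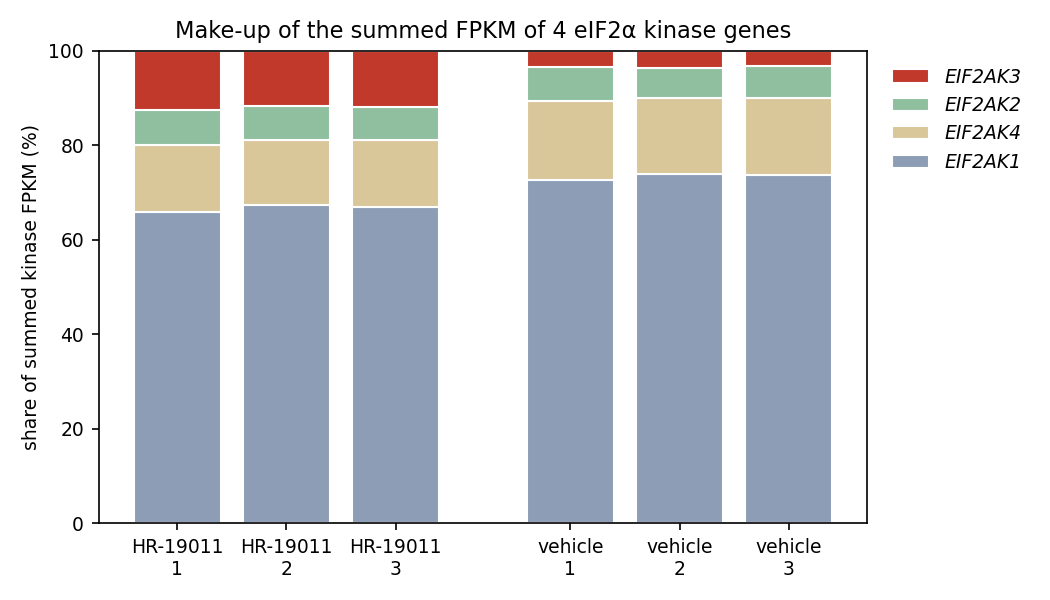
Share of each of the 4 kinase genes in their summed FPKM (vertical axis, percent) in 3 HR-19011 and 3 vehicle libraries (bars). EIF2AK3 takes 11.8% to 12.5% of the sum in treated libraries and 3.24% to 3.55% in vehicle libraries.

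Summed over the 4 kinases, the level was 85.1 ± 1.52 FPKM with HR-19011 and 70.3 ± 0.748 FPKM with vehicle (SD, n = 3 each). EIF2AK1 made up 66.7% ± 0.676 of that sum with HR-19011 and 73.4% ± 0.693 with vehicle. EIF2AK3 made up 12.1% ± 0.400 with HR-19011 and 3.42% ± 0.162 with vehicle, and EIF2AK4 14.1% ± 0.144 with HR-19011 and 16.3% ± 0.353 with vehicle. For these 3 the groups did not overlap (exact two-sided permutation p = 0.1, adjusted p = 0.106). The shares add up to the whole, so a larger share of EIF2AK3 lowers the others, and these are not separate results. In deposited FPKM neither EIF2AK1 nor EIF2AK4 was lower with HR-19011. The share of EIF2AK2 overlapped between groups, at 7.13% ± 0.164 with HR-19011 and 6.81% ± 0.351 with vehicle (exact permutation p = 0.3). In FPKM, the transcript of HRI exceeded that of PERK by a log2 ratio of 2.47 ± 0.0621 with HR-19011 and 4.42 ± 0.0715 with vehicle. Of the 15 pairwise ratios between members, that of EIF2AK1 to EIF2AK4 differed least, a log2 ratio of 2.24 ± 0.0284 with HR-19011 and 2.17 ± 0.0447 with vehicle.

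The genes around each kinase were taken from lists and are described by their counts and medians, beside 46.4% higher, 38% lower and a median of 0.07 over all tested genes. The lists were chosen with results of these data known. Around PERK, 5 of 6 regulators and fellow stress sensors rose and 1 fell, with a median log2 fold change of 0.81. HSPA5, encoding BiP, the chaperone that holds PERK inactive, was at 679 ± 10.5 FPKM with HR-19011 and 139 ± 5.61 FPKM with vehicle (SD, n = 3 each), a log2 fold change of 2.28 (adjusted p = 9.65e-11 in limma). ERN1, encoding the sensor IRE1, was at 11.3 ± 0.517 FPKM with HR-19011 and 1.89 ± 0.108 FPKM with vehicle, a 5.97-fold difference beside 4.27-fold for EIF2AK3. ATF6, encoding the remaining sensor, rose 1.26-fold and DNAJC3, a co-chaperone that restrains the kinases, 2.23-fold. PDIA6, a disulfide isomerase that dampens PERK and IRE1 signalling, rose 1.52-fold. CNPY2, a PERK activator, was called 1.09-fold lower (log2 fold change -0.12, adjusted p = 0.00641), and turned to 0.03 with quantile normalization and 0.0045 with TPM, neither of them called.

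Around OMA1, 9 of 10 mitochondrial proteases, scaffolds and substrates fell and none rose, with a median of -0.47. With TMM scaling 10 were lower, with TPM 7 were lower and 1 higher, and with quantile normalization 8 were lower and 1 higher. PGAM5, a mitochondrial phosphatase cleaved under stress, was at 19.8 ± 0.219 FPKM with HR-19011 and 62.8 ± 1.52 FPKM with vehicle (SD, n = 3 each), a log2 fold change of -1.62 (adjusted p = 3.45e-10 in limma). PHB1 (listed in the files as PHB) and PHB2, whose products form the prohibitin ring that scaffolds these proteases, fell 2.70-fold and 1.53-fold, and STOML2, a stomatin-like scaffold, 1.85-fold. PHB1, HSP90AA1 and HSPA8 have near copies elsewhere in the genome, and no source used here says how reads of such copies were divided, so their values are uncertain. OPA1, the fusion GTPase that OMA1 cleaves, was at 16.7 ± 0.693 FPKM with HR-19011 and 22.01 ± 0.672 FPKM with vehicle. YME1L1, the protease that degrades OMA1 and is degraded by it, was at 53.3 ± 1.29 FPKM with HR-19011 and 50.8 ± 1.84 FPKM with vehicle and was not called. It was called lower with TMM scaling, at -0.17 (adjusted p = 0.000927), and higher with TPM, at 0.19 (adjusted p = 0.000264), and with quantile normalization, at 0.22 (adjusted p = 0.000205). The calls of SPG7 and PARL were lost with TPM, and that of PARL also with quantile normalization.

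Among 11 genes that fold HRI or bind or degrade HRI and DELE1, 3 rose and 7 fell, with a median of -0.22. With TMM scaling 1 was higher and 9 lower (median -0.46), with TPM 4 were higher and 6 lower (median -0.09), and with quantile normalization 3 were higher and 5 lower (median -0.07). HSP90AA1, a chaperone that matures HRI, was at 237 ± 3.02 FPKM with HR-19011 and 655 ± 28.9 FPKM with vehicle (SD, n = 3 each). Its paralog HSP90AB1 fell 1.89-fold, and HSPA8, an HSP70 chaperone, 2.32-fold (adjusted p = 7.65e-10 in limma). CDC37, the kinase co-chaperone of HSP90, was called 1.14-fold lower, and the call was lost with TPM (-0.06, adjusted p = 0.182), with quantile normalization (-0.07, adjusted p = 0.114) and without the filter (adjusted p = 0.0568). LONP1, a matrix protease, rose 1.77-fold. UBR4, the large subunit of the ubiquitin ligase that silences HRI and DELE1 after stress, rose 1.23-fold with deposited values but was not called after TMM scaling (0.05, adjusted p = 0.178). Its partner KCMF1 was at 8.61 ± 0.333 FPKM with HR-19011 and 8.19 ± 0.310 FPKM with vehicle and was not called, but was called lower with TMM scaling (-0.16, adjusted p = 0.0107) and higher with TPM (0.19, adjusted p = 0.00756).

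Around PKR, 5 of 6 RNA-binding regulators fell with deposited values, with a median of -0.42. With TMM scaling 6 were lower (median -0.66), and TPM and quantile normalization each gave 4 lower and 1 higher (medians -0.30 and -0.32). DUS2, a tRNA dihydrouridine synthase, was at 4.69 ± 0.418 FPKM with HR-19011 and 8.86 ± 0.160 FPKM with vehicle (SD, n = 3 each), a log2 fold change of -0.80 (adjusted p = 1.31e-06 in limma). TARBP2, an inhibitor of PKR, fell 1.51-fold and STAU1 1.21-fold. PRKRA, whose product activates PKR, lost its call without HR-19011 replicate 2 (adjusted p = 0.0545 in limma) or without vehicle replicate 1 (adjusted p = 0.0545). Its call was also lost with TPM (-0.04, adjusted p = 0.527), with quantile normalization (-0.10, adjusted p = 0.108) and without the filter (adjusted p = 0.122). ADAR was at 39.7 ± 1.18 FPKM with HR-19011 and 38.6 ± 0.470 FPKM with vehicle and was not called with deposited values. ADAR was called lower with TMM scaling (-0.20, adjusted p = 0.000248) and higher with TPM (0.16, adjusted p = 0.000673) and quantile normalization (0.17, adjusted p = 0.000601).

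Around GCN2, 3 of 6 genes rose and 1 fell, and their median was 0.06, or -0.19 with TMM scaling, where 2 were higher and 4 lower. IMPACT, an inhibitor that competes for GCN1, was at 3.79 ± 0.159 FPKM with HR-19011 and 1.56 ± 0.112 FPKM with vehicle (SD, n = 3 each), a 2.42-fold difference. GCN1, the co-activator that GCN2 needs, fell 1.39-fold. Of the ribosomal P-stalk genes, whose products can activate GCN2, RPLP0 rose 1.39-fold and RPLP1 1.08-fold, the second turning lower after TMM scaling (-0.14), and RPLP2 was at 1306 ± 16.6 FPKM with HR-19011 and 1298 ± 36.3 FPKM with vehicle. These genes have processed pseudogenes and their values are uncertain. MAP3K20, a kinase that senses stalled ribosomes, was not called, but was called lower without vehicle replicate 2 (-0.12, adjusted p = 0.0218 in limma), with TMM scaling (-0.31) and with quantile normalization (-0.18).

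Downstream of all 4 kinases, EIF2S1, encoding the shared substrate eIF2α, was at 20.5 ± 0.521 FPKM with HR-19011 and 36.1 ± 1.37 FPKM with vehicle. Of the 7 genes for eIF2α and its phosphatases, 4 rose and 2 fell, and their median was 0.10, or -0.15 with TMM scaling, where 2 were higher and 4 lower. PPP1R15A, the stress-induced phosphatase subunit, rose 2.73-fold and the catalytic subunit gene PPP1CB 1.55-fold, whereas PPP1CC fell 1.22-fold. PPP1R15B, the constitutive subunit, rose by a log2 fold change of 0.25 with deposited values and was not called with TMM scaling (0.02, adjusted p = 0.702). PPP1CA, at 0.10, was called lower with TMM scaling, at -0.15. The adaptor gene NCK1 was not called with deposited values, and was called lower with TMM scaling (-0.20) and quantile normalization (-0.30). ATF4 and 5 targets of the response all rose, with a median of 2.98 and log2 fold changes of 1.28 for ATF4 to 3.76 for ATF3; DDIT3, TRIB3 and ASNS were at 3.03, 3.13 and 2.92. EIF2AK3, at 1.73, lay above ATF4 and below the 5 targets on this scale, and DELE1, at 0.60, below them all.

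**Figure D4:**
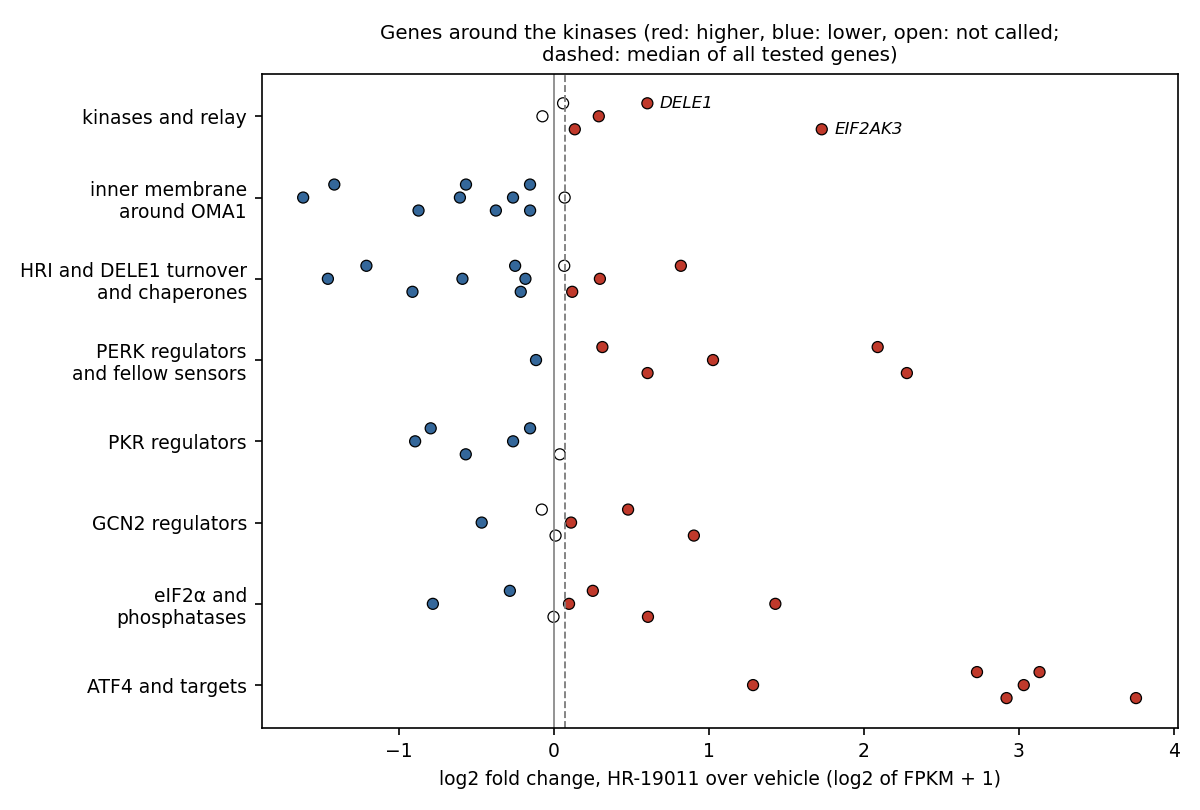
Log2 fold change of HR-19011 over vehicle on the log2(FPKM + 1) scale (horizontal axis) for the members and 7 lists of genes around them (rows); each point is a gene, red for called higher, blue for called lower and open for not called in limma, and the dashed line is the median of all tested genes, 0.07. Points of the OMA1 and PKR rows lie mostly to the left, those of the PERK row and of ATF4 and its targets mostly to the right.

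The genes whose values followed each member most closely were found by Euclidean distance of log2(FPKM + 1), taken from each gene's vehicle mean, over the 6 libraries. For EIF2AK3 they were CCNG2 (distance 0.0352), CD44 (0.0472) and HLA-E (0.0774). CCNG2 and CD44 were at 2.79 and 2.97 FPKM with HR-19011 and at 0.147 and 0.205 FPKM with vehicle, so the same difference on this scale is a much larger fold for them. For DELE1 they were PI4KB, RAB33B and IER5L, of which PI4KB was at 37.1 FPKM with HR-19011 and 24.1 FPKM with vehicle. The closest to EIF2AK1 were NONO, RBL1 and AGPAT3, and to EIF2AK2 GPATCH2L, TOP1 and TMEM50A. Among the closest to EIF2AK4 were CLASP2 and MMADHC, and the closest to OMA1 were MTBP, FANCD2P1 and UBQLN2. With 2 groups of 3 libraries, any gene with a like difference between groups is close, and the distances are a description.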

How the data were processed

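Polyadenylated RNA was made into stranded libraries from total RNA, per the labels' protocols. Per the submitters' processing notes, which give no roles, the tools were StringTie 2.1.3b, HISAT2 2.1.0, SAMtools 1.9, Trimmomatic 0.38, DESeq2 1.24.0, Bowtie2 and HISAT, on GRCh38. The deposited values are FPKM per gene, per the file headers; scaling to length and library size was done by the authors. Reads were not recovered: at the best of many steps 26.5% to 29.1% of low values lay within 0.1 of a whole multiple, against 20% by chance for 1 step. No 2 libraries of a group were duplicates (at most 0.0244% identical values).

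Groups and replicate numbers came from sample titles. Genes averaging at least 1 FPKM (11856) were fitted with limma 3.58.1 (R 4.3.3) on log2(FPKM + 1), which understates changes of low genes, with 1 term, the group, a trend of variance on mean and Benjamini-Hochberg adjustment at 0.05. Folds are ratios of mean FPKM. Ratios within libraries were tested with exact permutation (scipy 1.17.1). Named are the members, in each list up to 4 genes of smallest p with both directions where called, and 3 nearest genes per member; others were named after their values were seen, and 3 genes are not reported here. Members, lists and motifs were chosen with earlier results of these data known. Tried instead were other pseudocounts (0.1 and 5), other filters (none, or a mean of 5 FPKM), TMM (30% of log ratios and 5% of mean logs trimmed), TPM, quantile scaling, totals set equal leaving out globin and mitochondrial genes, a fit with no trend, a block for the replicate number, and each library left out. Positions and promoters are RefSeq on GRCh38.p14, and overlaps are from GENCODE on GRCh38.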

Additional observations from a re-analysis of the deposited data

How the results depend on the processing

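EIF2AK3 and DELE1 were called higher under every alternative run. The calls of the other 4 members depended on the scaling. With totals set equal leaving out globin and mitochondrial genes, each member kept its call. The log2 fold changes were then 1.72 (EIF2AK3), 0.59 (DELE1), 0.28 (EIF2AK2), 0.13 (EIF2AK1), 0.05 (EIF2AK4) and -0.08 (OMA1). Under TMM scaling EIF2AK1 was at -0.11, EIF2AK2 at 0.0798, EIF2AK4 at -0.17 and OMA1 at -0.30; quantile normalization gave EIF2AK2 0.0762 and OMA1 -0.21, and conversion to TPM gave EIF2AK4 0.18. OMA1 was thus called with DELE1, 2 relay genes in place of 1, under TMM scaling and quantile normalization. The share of EIF2AK2 among the kinases, 0.320 percentage points higher with HR-19011, became -1.196 under quantile normalization. Of genes named beside the members, TMM scaling turned NONO (-0.12), RBL1 (-0.0838), AGPAT3 (-0.10), CLASP2 (-0.19), MMADHC (-0.19), RPLP1 (-0.14) and PPP1CA (-0.15), and, not called with deposited values, YME1L1 (-0.17), KCMF1 (-0.16), ADAR (-0.20) and RPLP2 (-0.24). Quantile normalization turned RBL1 (-0.0567), CNPY2 (0.032), KCMF1 (-0.07), RPLP2 (-0.01) and EIF2AK4 (-0.03), and conversion to TPM turned CNPY2 (0.0045), MAP3K20 (0.04), NCK1 (0.11) and OMA1 (0.04). RPLP2 and NCK1, both near 0, also changed sign when 1 library was left out. The cause was not tested.

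Genes called higher numbered 3347 with a mean of at least 5 FPKM, where 8083 genes were tested, against 5506. Of called genes, the higher ones made up 55% (deposited FPKM), 40.7% (TMM), 46.4% (quantile), 62.2% (TPM), 64% (no filter) and 47.5% (mean of 5 FPKM or more). Leaving out 1 library at a time gave log2 fold changes of 1.71 to 1.74 for EIF2AK3, 0.58 to 0.63 for DELE1, 0.12 to 0.15 for EIF2AK1, 0.25 to 0.32 for EIF2AK2, 0.04 to 0.08 for EIF2AK4 and -0.11 to -0.02 for OMA1, the last value without vehicle replicate 3; no member's call changed.

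No pairing by replicate number was seen. Deviations of same-numbered libraries correlated at -0.034, -0.004 and -0.108, and those of differently numbered libraries at -0.034 to 0.07. With 3 libraries per group these values cannot show whether the samples were paired by design. With the replicate block 9880 genes were called, against 10009, and no member's call changed (EIF2AK1 adjusted p = 0.00680 in limma, EIF2AK3 adjusted p = 8.69e-08). Depth is unknown, so no limit from counting can be given.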
